A study of Mus musculus with 12 samples.

Results

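The tripartite motif (Trim) genes were followed in CD11c+ cells of mouse lungs infected with the fungus Pneumocystis. All probe sets whose single gene symbol starts with Trim and a digit were taken, which gave 58 genes from 111 probe sets, of 18193 genes in all. IFNAR-/- mice, which lack the type I interferon receptor, and wildtype mice had all received Pneumocystis into the trachea. Lung CD11c+ cells were taken with magnetic beads from 3 mice of each genotype at day 7 and from 3 others at day 14, and each of the 12 mice has its own Affymetrix array. The labels give no strain, age or sex, and uninfected mice were not analysed here. The design text asks whether type I interferon signalling starts in these cells after infection and whether it bears on the inflammatory response. CD11c+ lung cells include alveolar macrophages and dendritic cells. In sorted cells, fewer cells of a type and less RNA per cell cannot be told apart.

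Each deposited value is the ratio of a probe set to its own median across all 12 arrays. All values below are log2 of that ratio, averaged over the probe sets of a gene, so 0 is the median array. Such ratios carry no level, so genes are not compared with each other in abundance and whether a marker is present cannot be read. The median log2 ratio over Itgax, which encodes CD11c, and the leukocyte genes Itgam and Ptprc lay between -0.37 and 0.17 on every array. Purity of the cells cannot be read from it. On PCA 2 arrays, IFNAR-/- day 7 mouse 3 and IFNAR-/- day 14 mouse 2, lay apart from their groups, and calls of Trim genes described here that were lost or gained without both are given beside the result.

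Most TRIM proteins carry a RING domain that makes them ubiquitin ligases, followed by B-box and coiled-coil domains and a variable end, often a PRY-SPRY domain that binds targets. Many are induced by interferon, and members act at the sensors of viral RNA and DNA, at NF-kB signalling or directly on retroviral capsids. Type I interferons signal through IFNAR, and many of the genes they induce carry the interferon-stimulated response element in their promoters.

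At day 7 the genotype difference in the family was concentrated in a few members. Trim30a and Trim30d were lower in IFNAR-/- cells, Trim29 was higher, and the other 55 genes did not pass an adjusted p of 0.05 in limma. So 3 of 58 genes were called, where 2.64% of all genes were; 2 were lower, where 1.35% of all genes were, and 1 was higher, where 1.29% were. The median difference over the 58 genes was 0.00, with 29 below 0 and 29 above, and over all genes it was -0.00. Without regard to a test, 6 Trim genes (10.3%) had all IFNAR-/- arrays below all wildtype arrays, where 11.6% of all genes did. Another 12 (20.7%) had them all above, where 12.4% of all genes did. At day 14, Trim30d, Trim32 and Trim65 were called lower, 3 of 58 genes where 3.29% of all genes were, and 5.04% of all genes were called in either direction. None of the 58 was called higher at day 14 in limma, where 1.75% of all genes were, and 2 were higher at an unadjusted p under 0.05. At that day 13 Trim genes (22.4%) had no overlap on the lower side, where 13.3% of all genes did. On the higher side 3 (5.17%) had none, where 10.2% of all genes did. For 26 genes the difference stayed within 0.25 of 0 on both days.

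**Figure D1:**
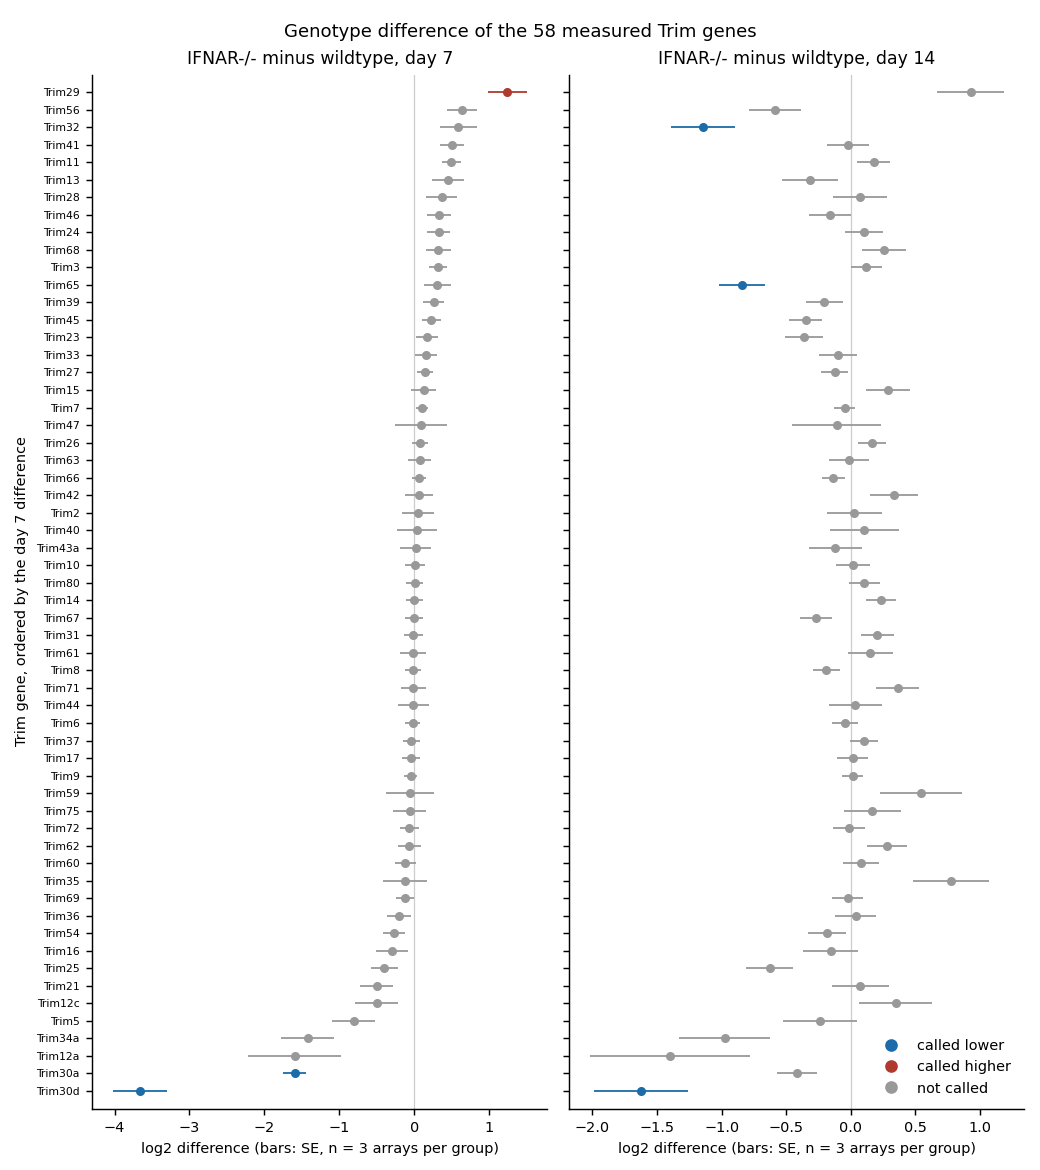
Difference between IFNAR-/- and wildtype cells (log2, horizontal axis) for each of the 58 Trim genes (vertical axis, ordered by day 7) at day 7 (left) and day 14 (right), with 3 arrays per group. Points are differences of group means, bars are standard errors, and colours mark adjusted p under 0.05. The lowest gene on both days is Trim30d, at -3.66 and -1.62, and the highest is Trim29, at 1.24 and 0.93.

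The largest differences lay in a run of neighbouring genes on chromosome 7. In the GRCm38.p6 gene table the order is Trim6, Trim34a, Trim5, Trim12a, Trim34b, Trim12c, Trim30b, Trim30c, Trim30a, Trim30d and Trim30e-ps1, and 7 of these 11 have a probe set of their own here. All 7 differences were below 0 at day 7, with a median of -1.42, and 2 were called. In the 51 Trim genes outside the cluster the median was 0.04, with 0 called lower in limma and 1 called higher; 2 were lower at an unadjusted p under 0.05. At day 14 the cluster median was -0.42, with 6 of 7 below 0 and 1 called. The genes arose by duplication and some are near-identical, so a probe set named for 1 of them may bind RNA of its neighbours, and single members are uncertain. The cluster holds the mouse relatives of human TRIM5, TRIM6 and TRIM34, of which TRIM5 blocks retroviral capsids, and the Trim30 genes of rodents.

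The promoters of 6 of the 7 measured cluster genes hold a core of the interferon-stimulated response element. They are shown because these neighbours had the largest genotype differences. The motif, GAAA, any 2 bases and GAAA, was searched on both strands (TTTC, any 2 bases and TTTC on the opposite one) in RefSeq windows of 300 bases (250 before to 50 after the start, build GRCm38.p6). It was found in 9 of the 47 Trim genes with a window, which is 19.1%, and in 3.99% of all 27025 genes with a window; 11 Trim genes had none. The lines give 110 bases per gene, 5′ to 3′ on the gene's strand, starting 60 bases before the start, with the match in capitals.
Trim34a (chr7:104244397-104244506, plus strand): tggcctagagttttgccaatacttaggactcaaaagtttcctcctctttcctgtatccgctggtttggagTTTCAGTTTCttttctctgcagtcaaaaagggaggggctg
Trim5 (chr7:104288057-104288166, minus strand): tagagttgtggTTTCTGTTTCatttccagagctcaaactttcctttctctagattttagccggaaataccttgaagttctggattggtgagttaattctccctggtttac
Trim12a (chr7:104315446-104315555, minus strand): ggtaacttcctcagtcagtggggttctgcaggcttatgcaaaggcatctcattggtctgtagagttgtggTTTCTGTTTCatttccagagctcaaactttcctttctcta
Trim12c (chr7:104353300-104353409, minus strand): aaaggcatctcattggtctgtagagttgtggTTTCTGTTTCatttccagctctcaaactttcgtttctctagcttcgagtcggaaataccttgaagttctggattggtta
Trim30a (chr7:104465144-104465253, minus strand): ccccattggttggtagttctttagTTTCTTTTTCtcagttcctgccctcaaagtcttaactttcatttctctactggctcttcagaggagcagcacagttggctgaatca
Trim30d (chr7:104507800-104507909, minus strand): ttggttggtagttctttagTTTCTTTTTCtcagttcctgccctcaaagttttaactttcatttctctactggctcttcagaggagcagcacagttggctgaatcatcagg
With the start base as position 0, the match begins at 10 in Trim34a and Trim12a, at -49 in Trim5 and at -29 in Trim12c. It begins at -36 in the Trim30a window shown and at -41 in Trim30d. Another RefSeq window of Trim30a, not shown, also holds a match, beginning at 2. The longest run shared by the 300-base windows is 241 bases for Trim5 and Trim12a and 118 for Trim30a and Trim30d, and both runs hold the match. Trim12c shares a run of 63 bases that holds the match with each of Trim5 and Trim12a, so the matches of these 3 genes, and those of the 2 Trim30 genes, are not separate occurrences. Trim6, the member with the smallest day 7 difference of the 7, has no match in its window. Matches are descriptions of the letters; binding was not measured.

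Trim30d, a member of the Trim30 group whose own function is little studied, had the largest difference. Its log2 ratio was 3.50, 3.13 and 2.74 in wildtype mice 1 to 3 at day 7, and -0.47, -0.76 and -0.37 in the IFNAR-/- mice of that day. At day 14 it was 0.12, 1.60 and 1.70 in wildtype mice and -0.48, -0.20 and -0.77 in IFNAR-/- mice. The groups did not overlap on either day, although wildtype day 14 mouse 1 came near the IFNAR-/- arrays. The difference was -3.66 ± 0.36 (SE, n = 3 per group; limma adjusted p = 0.000506) at day 7, which is 12.6-fold lower, and -1.62 ± 0.36 (adjusted p = 0.0284) at day 14. The day 14 call was lost without IFNAR-/- mouse 1 or 3 or wildtype mouse 2 or 3, where differences ran from -1.63 to -1.34 and adjusted p from 0.0678 to 0.103. The change of the difference between days, 2.04 ± 0.51, did not pass the threshold (adjusted p = 0.0603).

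Trim30a, which restrains Toll-like receptor signalling to NF-kB by removing TAB2 and TAB3, followed at day 7. It stood at 1.65, 1.55 and 1.27 in wildtype mice and at -0.05, -0.44 and 0.18 in IFNAR-/- mice. At day 14 the wildtype values were 0.12, 0.15 and 0.36 and the IFNAR-/- values -0.22, -0.18 and -0.22. Wildtype arrays were thus high at day 7 and close to the IFNAR-/- arrays at day 14, without overlap of the gene means on either day. On 1 of its probe sets the genotypes overlapped at day 14. Wildtype mice were at 0.24, -0.35 and 0.02 there, and IFNAR-/- mice at -0.05, -0.15 and -0.23. The difference of the gene means was -1.60 ± 0.16 (limma adjusted p = 0.000506) at day 7 and -0.42, not called, at day 14. The difference was smaller at day 14 by 1.18 ± 0.22 (limma adjusted p = 0.0235). That change lost its call without IFNAR-/- day 7 mouse 1, wildtype day 7 mouse 1 or 2, or wildtype day 14 mouse 2, where it ran from 1.10 to 1.20 with adjusted p from 0.0544 to 0.0588. With the ratio of 5′ over 3′ control signal, a measure of RNA quality, as a covariate it was 1.04 and not called (adjusted p = 0.271). The call was also lost with the probe set of largest spread and with the trended variance prior.

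**Figure D2:**
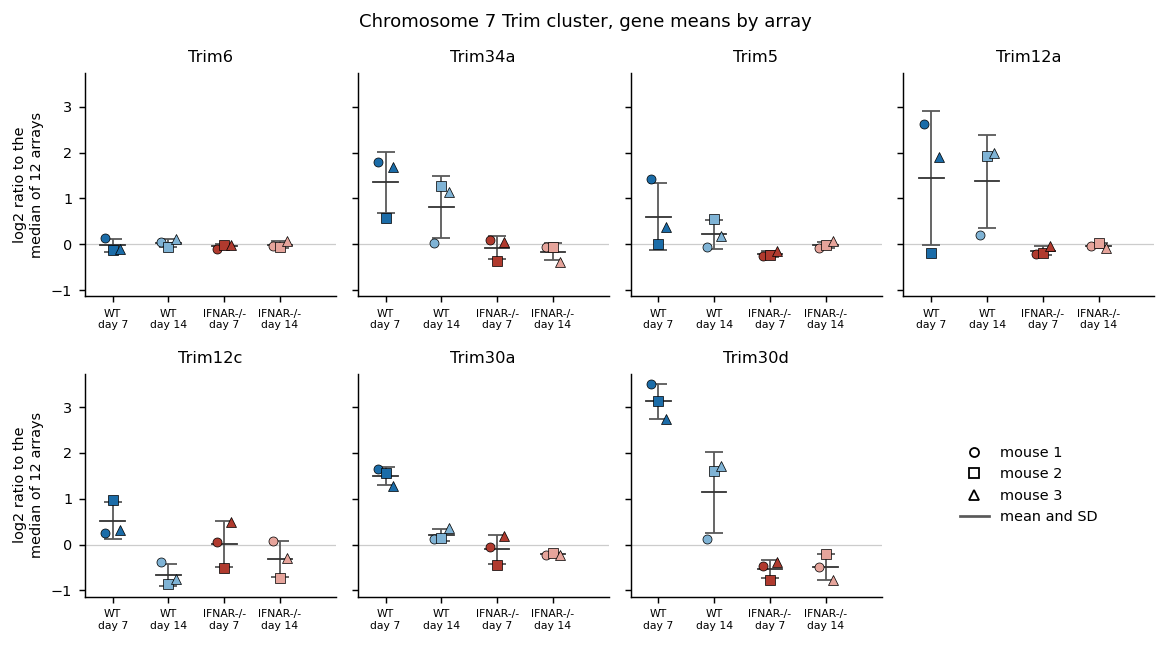
Log2 ratio to the median of 12 arrays (vertical axis) of the 7 measured cluster genes in each mouse, by genotype and day (horizontal axis); symbols are mice, and lines are the group mean and SD (n = 3). Trim30d and Trim30a are highest in the wildtype day 7 arrays, at 2.74 to 3.50 and 1.27 to 1.65, and Trim6 stays between -0.11 and 0.14 on all arrays.

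Trim34a and Trim12a differed from mouse to mouse among the wildtype animals. Trim34a, next to Trim5 and of the same PRY-SPRY type, was 1.79, 0.58 and 1.68 in wildtype mice at day 7, then 0.03, 1.27 and 1.13 at day 14. In IFNAR-/- mice it was 0.09, -0.37 and 0.05 at day 7, then -0.06, -0.06 and -0.38 at day 14. The IFNAR-/- arrays lay below the wildtype arrays on both days. The differences, -1.42 ± 0.35 (limma adjusted p = 0.0626) and -0.98 ± 0.35 (adjusted p = 0.14), were not called on single days, and their mean was, at -1.20 ± 0.25 (adjusted p = 0.0232). That call was lost without any of 7 arrays, which were IFNAR-/- day 7 mouse 1 or 2, IFNAR-/- day 14 mouse 3, wildtype day 7 mouse 1 or 3 and wildtype day 14 mouse 2 or 3. The mean difference then ran from -1.24 to -1.09 with adjusted p from 0.05 to 0.0579, and with the 5′ over 3′ covariate it was -1.17 (adjusted p = 0.0579). Trim12a, a relative of TRIM5, was 2.63, -0.18 and 1.91 in wildtype mice at day 7, then 0.21, 1.93 and 1.98 at day 14. Its 6 IFNAR-/- values lay between -0.21 and 0.03. The differences of -1.60 ± 0.62 (limma adjusted p = 0.252) and -1.40 ± 0.62 (adjusted p = 0.225) were not called; wildtype mouse 2 lay among the IFNAR-/- mice at day 7, and the genotypes did not overlap at day 14.

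In both genes the spread among wildtype mice was wider on 1 of the 2 probe sets. One of the probe sets of Trim12a read 5.20, -0.18 and 3.94 in wildtype mice at day 7, then 0.38, 3.72 and 3.93 at day 14. All 6 IFNAR-/- arrays lay between -0.12 and 0.02 on it. On this probe set wildtype day 7 mouse 2 and wildtype day 14 mouse 1 thus lay near the IFNAR-/- arrays. A gap of 3.34 separated them from the other 4 wildtype arrays, the 21st largest gap of the 34945 probe sets. The other Trim12a probe set stayed between -0.37 and 0.13 on all arrays. One of the Trim34a probe sets had the same 4 wildtype arrays high, at 3.94 and 2.99 (day 7) and 2.79 and 2.58 (day 14), with 0.33 and -0.52 in the other two. Its IFNAR-/- arrays ran from -0.65 to 0.04. The other Trim34a probe set ran from -0.38 to 0.83 with the groups overlapping on both days. On the Trim30d probe set with the larger spread, wildtype day 7 mouse 2 was as high as its group, at 3.65 beside 3.97 and 3.19, and wildtype day 14 mouse 1 was at 0.28 beside 2.28 and 2.44. On the interferon-stimulated genes Irf7 and Oas3, wildtype day 7 mouse 2 was the highest of its group, at 3.65 and 3.72. Mice 1 and 3 were at 2.80 and 2.60 on Irf7 and at 3.03 and 2.51 on Oas3. On Ddx58 mouse 2 lay between them, at 0.95 beside 0.89 and 1.01. Wildtype day 14 mouse 1 was at -0.10 on Irf7, beside 0.06 and -0.27. The labels do not set wildtype day 7 mouse 2 or wildtype day 14 mouse 1 apart, and the cause was not tested.

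**Figure D3:**
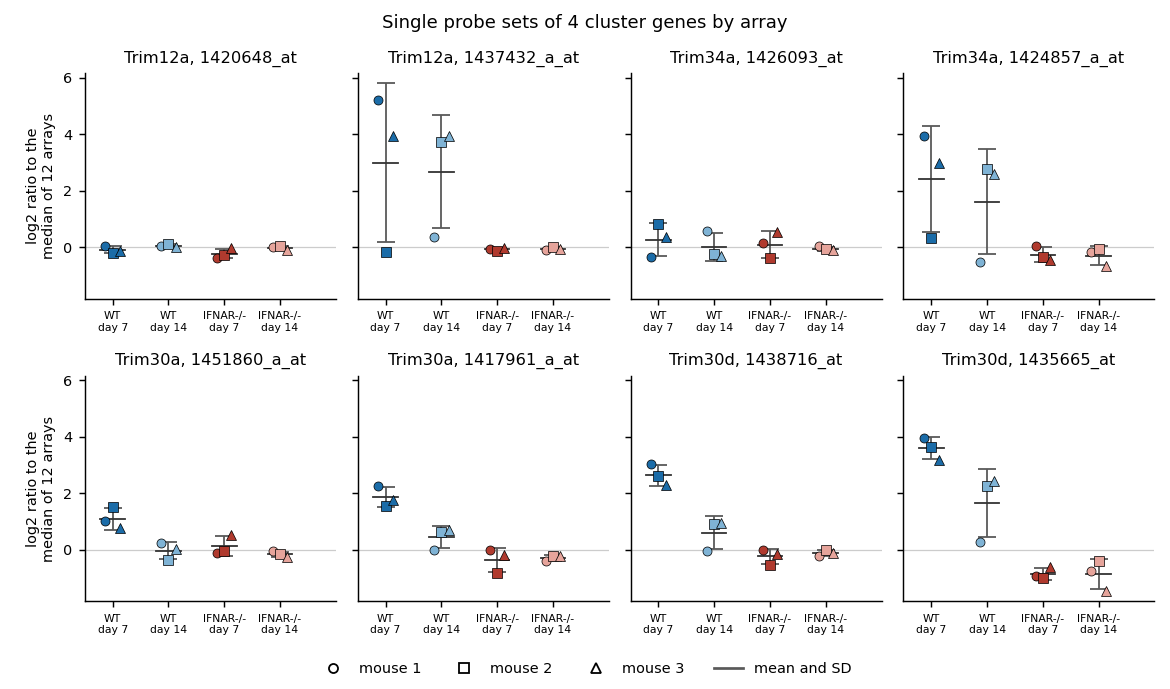
Log2 ratio to the median of 12 arrays (vertical axis) of 8 single probe sets of Trim12a, Trim34a, Trim30a and Trim30d by genotype and day (horizontal axis); symbols are mice, and lines are the group mean and SD (n = 3). On the right-hand probe set of Trim12a and of Trim34a 4 of 6 wildtype arrays are high, while wildtype day 7 mouse 2 and wildtype day 14 mouse 1 are near 0.

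The other cluster genes had smaller differences. Trim5 was 1.41, 0.00 and 0.37 in wildtype mice at day 7 and -0.25, -0.24 and -0.15 in IFNAR-/- mice, with the genotypes apart and wildtype mouse 1 the highest. Its difference was -0.81 ± 0.29 (limma adjusted p = 0.198) at day 7 and -0.24 (adjusted p = 0.696) at day 14. Trim12c was 0.25, 0.98 and 0.32 in wildtype mice at day 7 and 0.06, -0.51 and 0.49 in IFNAR-/- mice, so the groups overlapped; the differences were -0.50 and 0.35, neither called. Trim6, a ligase that makes unanchored ubiquitin chains in interferon signalling, differed by -0.02 (95% interval -0.24 to 0.20) at day 7 and -0.04 (-0.26 to 0.17) at day 14. The genotype difference did not pass the test of change between days in Trim34a (0.45), Trim5 (0.57), Trim12c (0.85) or Trim12a (0.19). Markers of dendritic cells moved with these day 7 differences. Of 7 measured, 5 were called lower in IFNAR-/- cells, where 1.35% of all genes were. The list median was -0.63 to -0.38 in IFNAR-/- arrays and 0.04 to 0.42 in wildtype arrays. At day 14 it was the higher in IFNAR-/- arrays, at 0.00 to 0.34 against -0.17 to -0.04, with 2 called higher, where 1.75% of all genes were. The median of 5 plasmacytoid dendritic cell markers was lower in IFNAR-/- arrays on both days, at -0.50 to -0.05 against 0.09 to 0.73, then -0.35 to -0.16 against 0.25 to 0.44. Of these 5, Bst2 is also on the interferon-stimulated list given below. Bst2 differed by -1.38 (limma adjusted p = 0.0249) at day 7. At day 14 its difference of -0.60, not called, was also the median difference of the 5. The part of either dendritic cell list in the result was not tested.

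Among members that act at nucleic acid sensing or on antiviral signalling, a list of 16 of which 15 were measured, none was called at day 7 in limma; 2 were lower and 2 higher at an unadjusted p under 0.05. The list median was 0.12 at day 7 and 0.07 at day 14. Trim25 attaches ubiquitin to RIG-I. It was 0.96, 0.62 and 0.62 in wildtype mice, against 0.23, 0.22 and 0.54 in IFNAR-/- mice at day 7, and -0.41, -0.17 and -0.18 against -0.55, -1.30 and -0.80 at day 14. IFNAR-/- arrays were the lower on both days. The differences of -0.40 (limma adjusted p = 0.362) and -0.63 (adjusted p = 0.0757) were not called, and their mean of -0.52 ± 0.13 was (adjusted p = 0.0494). Only leaving out IFNAR-/- day 14 mouse 1 or 2 kept that call; without any 1 of the other 10 arrays the mean ran from -0.57 to -0.46 with adjusted p from 0.0519 to 0.121, and with the 5′ over 3′ covariate it was -0.53 (adjusted p = 0.0951). Over both days 4 Trim genes were called lower, Trim25, Trim30a, Trim30d and Trim34a, where 2.49% of all genes were, and 1, Trim29, was called higher, where 1.7% were; 4.19% were called in either direction.

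Trim21, the cytosolic antibody receptor, was 0.63, 0.86 and 0.09 in wildtype mice, against -0.17, -0.21 and 0.47 in IFNAR-/- mice at day 7. The groups overlapped, and the difference was -0.50 ± 0.22 (limma adjusted p = 0.34), against 0.07 at day 14. At day 14 its probe sets went opposite ways, with overlap on each. On 1 of them IFNAR-/- mice were at 0.18, 0.16 and -0.24, against -0.12, -0.41 and -1.08 in wildtype mice. On the other they were at -0.41, -0.31 and -0.67, against -0.57, 0.15 and 0.29. The RefSeq promoter of Trim21 holds overlapping matches to the motif, beginning at 13 and 19. It is shown, in the same 110-base window, because the matches read GAAA on the gene's own strand rather than TTTC as in the cluster.
Trim21 (chr7:102565433-102565542, minus strand): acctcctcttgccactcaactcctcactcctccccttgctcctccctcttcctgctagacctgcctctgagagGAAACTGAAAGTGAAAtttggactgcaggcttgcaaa
Trim14, an adaptor at MAVS, differed by -0.00 at day 7 and 0.23 at day 14, neither called. Trim26, which acts on IRF3 and on antiviral signalling, differed by 0.07 and 0.16 and Trim27, a nuclear ligase, by 0.14 and -0.12. Trim25 has no match in its promoter window, and Trim26 has overlapping matches beginning at -160 and -154. Trim2, outside this list, has a match beginning at 28. Its group means were 0.22 in IFNAR-/- and 0.17 in wildtype mice at day 7, then -0.07 and -0.10 at day 14.

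Trim29, which lacks the RING domain and restrains innate responses in alveolar macrophages, was the 1 member called higher in IFNAR-/- cells. It was 1.67, 1.36 and 1.69 in IFNAR-/- mice at day 7 and 0.42, -0.13 and 0.71 in wildtype mice. At day 14 it was 0.11, -0.48 and -0.17 in IFNAR-/- mice and -0.60, -1.47 and -1.25 in wildtype mice. IFNAR-/- arrays were higher on both days without overlap. The difference was 1.24 ± 0.26 (limma adjusted p = 0.0284) at day 7, 0.93 ± 0.26 (adjusted p = 0.0637) at day 14 and 1.08 ± 0.18 (adjusted p = 0.00885) over both. The day 7 call was lost without any 1 of the arrays compared except wildtype mouse 3, where it ran from 1.01 to 1.35 with adjusted p from 0.0569 to 0.11. It was also lost without the 2 arrays that lay apart (1.18, adjusted p = 0.0661). The mean over both days was called without any 1 of the 12 arrays.

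Markers of alveolar macrophages moved with Trim29. Their list median, over 7 of 8 measured, was 0.90 to 1.20 in IFNAR-/- arrays at day 7, -0.06 to 0.78 in wildtype arrays at day 7, -0.74 to 0.04 in IFNAR-/- arrays at day 14 and -0.89 to -0.41 in wildtype arrays at day 14. None of the 7 was called at day 7, and 1 was called higher at day 14, where 1.75% of all genes were. Trim29 is also known to be expressed in lung epithelium. At day 7 the median over 7 epithelial markers was 0.06, -0.06 and 2.02 in IFNAR-/- mice, beside Trim29 at 1.67, 1.36 and 1.69. In wildtype mice it was 1.01, 0.44 and -0.25, beside Trim29 at 0.42, -0.13 and 0.71. IFNAR-/- day 7 mouse 3 was also high in the medians of endothelium, fibroblast and erythroid markers, at 2.36, 2.16 and 2.43. At day 14 the epithelial median ran from -0.16 to 0.22 in IFNAR-/- arrays. It ran from -0.49 to -0.41 in wildtype day 14 arrays, where Trim29 was lowest. The part of these lists in the result was not tested.

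**Figure D4:**
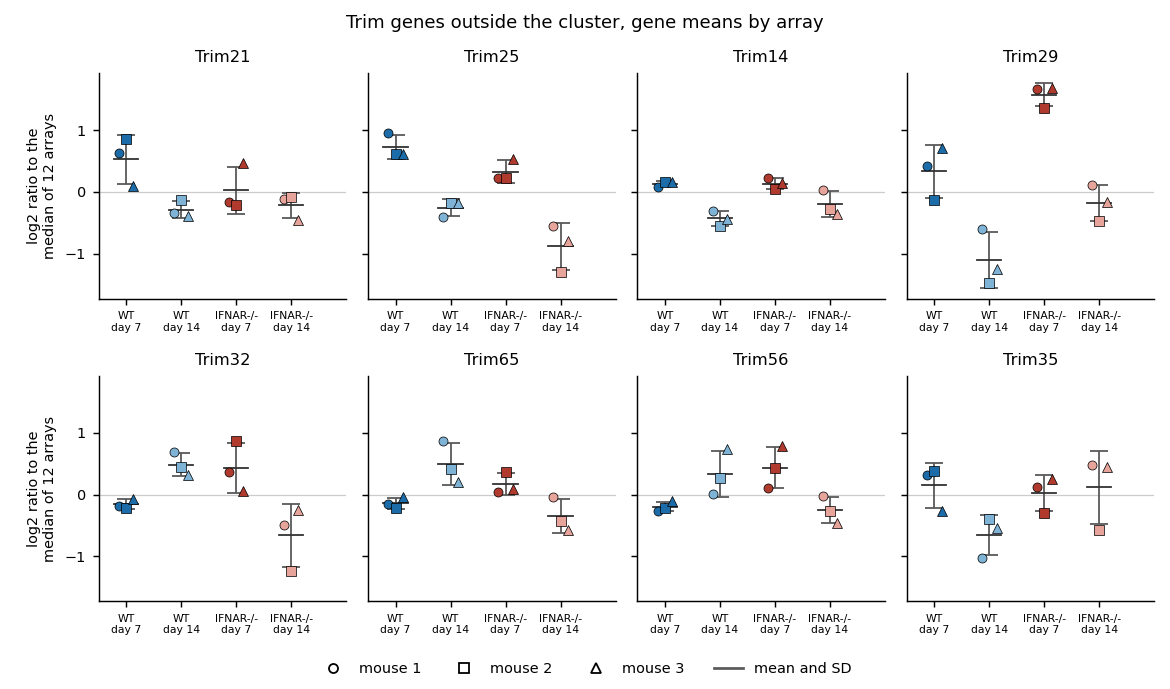
Log2 ratio to the median of 12 arrays (vertical axis) of 8 Trim genes outside the cluster by genotype and day (horizontal axis); symbols are mice, and lines are the group mean and SD (n = 3). Trim29 is highest in the IFNAR-/- day 7 arrays, at 1.36 to 1.69, and Trim32 is higher in IFNAR-/- than wildtype arrays at day 7 and lower at day 14.

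Trim32, Trim65 and Trim56 had all IFNAR-/- arrays above wildtype at day 7 and all below at day 14. Of all genes 12.4% had them all above at day 7, and 13.3% all below at day 14. The share of all genes with both was not counted, so whether this is unusual cannot be said. Trim32 is a ligase with NHL repeats that acts in muscle and on innate signalling. It was -0.19, -0.21 and -0.07 in wildtype mice, against 0.37, 0.86 and 0.06 in IFNAR-/- mice at day 7. At day 14 it was 0.70, 0.44 and 0.32 in wildtype mice, against -0.49, -1.23 and -0.25 in IFNAR-/- mice. The difference was 0.59 ± 0.25 (limma adjusted p = 0.311) at day 7 and -1.14 ± 0.25 (adjusted p = 0.0264) at day 14, and it changed by -1.73 ± 0.35 (adjusted p = 0.0304). Trim65, which attaches ubiquitin to MDA5, was -0.16, -0.22 and -0.05 in wildtype mice, against 0.04, 0.37 and 0.09 in IFNAR-/- mice at day 7. At day 14 it was 0.87, 0.41 and 0.20 in wildtype mice, against -0.05, -0.42 and -0.58 in IFNAR-/- mice. Its differences were 0.31 ± 0.18 (limma adjusted p = 0.555) and -0.84 ± 0.18 (adjusted p = 0.0259), a change of -1.15 ± 0.26 (adjusted p = 0.0436). Trim56, which acts at STING and TRIF, differed by 0.63 ± 0.20 (limma adjusted p = 0.15) and -0.59 ± 0.20 (adjusted p = 0.126), a change of -1.22 ± 0.29 that was not called (adjusted p = 0.0522).

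In the test of change between days, 2 Trim genes were called on the lower side, where 1.34% of all genes were, and 1, Trim30a, on the higher side, where 1.14% were; 2.48% were called in either direction. The day 14 calls rest on few arrays. That of Trim32 was lost without wildtype day 14 mouse 1, 2 or 3, where it ran from -1.23 to -1.04 with adjusted p from 0.0612 to 0.0732. That of Trim65 was lost without IFNAR-/- mouse 2 or 3 or wildtype mouse 1 or 2 of that day, where it ran from -0.88 to -0.66 with adjusted p from 0.0574 to 0.0812. The change of Trim32 was lost without any of 7 arrays, IFNAR-/- day 7 mouse 1 or 2, wildtype day 7 mouse 1 or 2 and each wildtype day 14 mouse, where adjusted p ran from 0.0552 to 0.0732. The change of Trim65 was kept only without IFNAR-/- day 14 mouse 1 or wildtype day 14 mouse 3; otherwise it ran from -1.21 to -0.96 with adjusted p from 0.055 to 0.106. The ratio of 5′ over 3′ control signal was -0.91 to -0.18 in wildtype day 14 arrays and 0.06 to 0.16 in IFNAR-/- day 14 arrays (log2). With it as a covariate 37 of all 18193 genes were called in limma at day 14, against 917 without it. Of the Trim genes 0 were then called in limma at day 14, where 6 had an unadjusted p under 0.05. For the change between days 0 were called in limma, where 8 had an unadjusted p under 0.05. The change was then -1.58 in Trim32 (limma adjusted p = 0.297) and -1.22 in Trim65 (adjusted p = 0.271). Without the 2 arrays that lay apart, Trim65 was called neither at day 14 (-0.81, limma adjusted p = 0.0625) nor for the change (-1.15, adjusted p = 0.0729), and Trim32 was called higher at day 7 (0.77, adjusted p = 0.042). T cell markers also differed at day 14, with 4 of 7 called higher in IFNAR-/- cells, where 1.75% of all genes were. Their list medians were 0.38 to 0.82 against -0.32 to -0.11 in wildtype. The part of either in the result was not tested.

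The other members gave no called genotype difference with all 12 arrays. The TIF1 transcription co-regulators Trim24, Trim28, Trim33 and Trim66 were all above 0 at day 7, between 0.07 and 0.36, and between -0.14 and 0.10 at day 14. The differences were 0.32 and 0.10 in Trim24, 0.36 and 0.07 in Trim28, and 0.15 and -0.10 in Trim33. None of the 4 was called in limma on either day, and 0 had an unadjusted p under 0.05. Trim35, a ligase of blood cell lineages, differed by -0.12 at day 7 and 0.77 (limma adjusted p = 0.158) at day 14, and Trim59, a member with a membrane anchor, by -0.06 and 0.55 (adjusted p = 0.364). Without the 2 arrays that lay apart, Trim35 was called higher at day 14 (1.12, limma adjusted p = 0.0307). After Trim29, the highest mean differences over both days were 0.33 ± 0.09 (limma adjusted p = 0.0658) in Trim11 and 0.33 ± 0.21 (adjusted p = 0.499) in Trim35. The 3 measured muscle members, Trim54, Trim63 and Trim72, lay between -0.28 and 0.07 at day 7, and the 4 members at microtubules between -0.21 and 0.33. Of the 58 genes 45 were called in none of the 6 comparisons. Family members under other symbols included Pml, the organiser of nuclear bodies, which was called lower at day 7 (-0.55 ± 0.12, limma adjusted p = 0.0385). Mid1, Mid2 and Mefv were not, at -0.02, 0.48 and -0.76.

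From day 7 to day 14 every Trim gene called with all 12 arrays fell. In wildtype cells 7 of 58 were called lower, Trim12c, Trim14, Trim21, Trim25, Trim29, Trim30a and Trim30d, where 4.1% of all genes were and 7.98% were called in either direction. None was called higher in limma, where 3.88% of all genes were, and 3 were higher at an unadjusted p under 0.05. In IFNAR-/- cells 6 were called lower, Trim3, Trim25, Trim29, Trim32, Trim41 and Trim45, where 8.25% of all genes were and 12.3% were called in either direction. Again none was called higher in limma, where 4.08% were, and 1 was higher at an unadjusted p under 0.05. Without a test, 15 Trim genes (25.9%) had no overlap on the falling side in wildtype, where 15.2% of all genes did. On the rising side 5 (8.62%) had none, where 16% of all genes did. In IFNAR-/- cells these were 17 (29.3%), where 17.8% of all genes did, and 4 (6.9%), where 16.2% did. The ratio of 5′ over 3′ control signal moved with the wildtype comparison, at 0.08 to 0.18 in day 7 arrays and -0.91 to -0.18 in day 14 arrays (log2). With it as a covariate 1 of the 7 wildtype calls was left, that of Trim30a, and 4 of the 6 in IFNAR-/- cells, without Trim3 (-0.39, limma adjusted p = 0.0868) and Trim45 (-0.46, adjusted p = 0.0722). Its part in the result was not tested. Without the 2 arrays that lay apart, 12 Trim genes were called in wildtype cells, of which 1, Trim32, was higher at day 14 (0.64, limma adjusted p = 0.0215). Both arrays are IFNAR-/-, so the wildtype differences stayed the same and only the estimate of spread, shared by all groups, changed. Then 3 were called in IFNAR-/- cells, where Trim3 (-0.44, limma adjusted p = 0.0933), Trim41 (-0.46, adjusted p = 0.203) and Trim45 (-0.43, adjusted p = 0.163) were lost.

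Of the 7 cluster genes, 3 fell in wildtype cells. Trim30d fell by 1.98 ± 0.36 (limma adjusted p = 0.00884) there and differed by 0.05 between days in IFNAR-/- cells, and Trim30a fell by 1.28 ± 0.16 (adjusted p = 0.00128) there and differed by -0.10 in IFNAR-/- cells. For Trim30a the test of change between genotypes is the 1.18 above, and for Trim30d that test missed the threshold. Trim12c fell by 1.18 ± 0.28 (limma adjusted p = 0.0292) in wildtype cells, and its IFNAR-/- value was -0.33. Trim21 fell by 0.82 ± 0.22 (limma adjusted p = 0.0447) and Trim14 by 0.56 ± 0.12 (adjusted p = 0.015) in wildtype cells. In IFNAR-/- cells Trim21 differed by -0.24 and Trim14 by -0.33. The Trim14 probe set with the larger spread fell without overlap in both genotypes. It went from 0.18 to 0.38 down to -0.92 to -0.55 in wildtype arrays, and from 0.26 to 0.37 down to -0.79 to -0.21 in IFNAR-/- arrays. The other Trim14 probe set stayed between -0.30 and 0.28 on all arrays. The tests of change between genotypes were not called, at 0.85 for Trim12c and 0.58 for Trim21, nor was that of Trim14. Calls in wildtype cells were lost without day 7 mouse 2 or 3 or day 14 mouse 2 or 3 for Trim12c (-1.28 to -0.95, adjusted p 0.052 to 0.104), and without day 7 mouse 2 or day 14 mouse 2 for Trim14 (-0.56 and -0.51). That of Trim21 was kept only without day 7 mouse 3, and ran from -0.90 to -0.65 otherwise.

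Trim25 and Trim29 fell in both genotypes. Trim25 fell by 0.99 ± 0.18 (limma adjusted p = 0.00944) in wildtype and 1.21 ± 0.18 (adjusted p = 0.00239) in IFNAR-/- cells. Trim29 fell by 1.44 ± 0.26 (limma adjusted p = 0.00828) and 1.75 ± 0.26 (adjusted p = 0.0021). Alveolar macrophage markers fell over the same days, with medians of -1.15 in wildtype and -1.56 in IFNAR-/- cells. In each genotype 3 of 7 were called lower, where 4.1% of all genes were in wildtype and 8.25% in IFNAR-/- cells. In IFNAR-/- cells Trim32 fell by 1.09 ± 0.25 (limma adjusted p = 0.017), and in wildtype cells it was 0.64 higher at day 14 (adjusted p = 0.149). Trim65 was 0.63 higher at day 14 in wildtype cells (limma adjusted p = 0.0563) and Trim56 0.53 (adjusted p = 0.146). Trim3, an NHL-repeat ligase, fell by 0.42, Trim41 by 0.62 and Trim45, a repressor of AP-1 signalling, by 0.49 in IFNAR-/- cells. Without 1 array at a time those calls were kept in 2, 3 and 1 of 6 cases, and that of Trim32 was lost only without day 7 mouse 2 (-0.87, adjusted p = 0.0587). Trim3 was lost without day 7 mouse 1 or 2 or day 14 mouse 2 or 3, Trim41 without day 7 mouse 1 or 3 or day 14 mouse 2, and Trim45 without any but day 14 mouse 1. Adjusted p then ran from 0.0628 to 0.129. The highest differences in IFNAR-/- cells were 0.37 in Trim71, 0.33 in Trim61 and 0.31 in Trim75, none called.

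**Figure D5:**
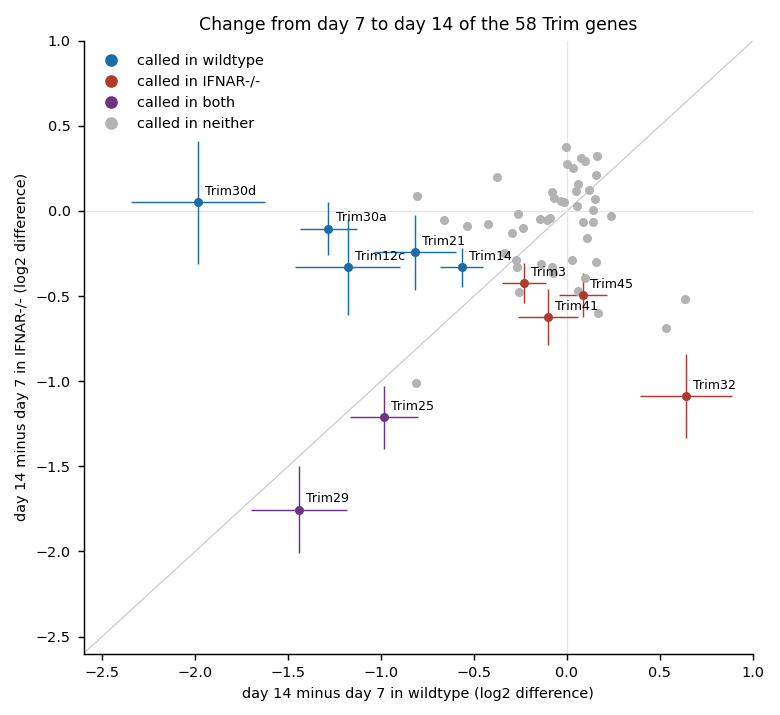
Change from day 7 to day 14 in wildtype (horizontal axis) and IFNAR-/- cells (vertical axis), as log2 differences of the 58 Trim genes with 3 arrays per group; bars are standard errors for genes called in either, and the diagonal marks equal change. Trim30d and Trim30a lie far left near 0 on the vertical axis, Trim25 and Trim29 low on both, and Trim32 low in IFNAR-/- cells.

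For scale, of 35 measured genes of an interferon-stimulated list of 38, 19 were called lower in IFNAR-/- cells at day 7, where 1.35% of all genes were, with all 35 differences below 0 and a median of -1.46. At day 14, 4 were called lower, where 3.29% of all genes were, with a median of -0.25. Over time in wildtype cells 25 were called lower, where 4.1% of all genes were, with a median of -1.58. In IFNAR-/- cells 8 were called lower, where 8.25% of all genes were, and 2 higher, where 4.08% were, with a median of -0.25. Of genes whose products work with TRIM proteins, 21 of 24 were measured, and 3 were called lower at day 7, where 1.35% of all genes were. These were Sting1, the adaptor of DNA sensing and a target of Trim56 (-1.37 ± 0.15, limma adjusted p = 0.000913), Irf8, a transcription factor of dendritic cells (-1.14 ± 0.25, adjusted p = 0.0378), and Ddx58, which encodes RIG-I, the target of Trim25 (-0.72 ± 0.14, adjusted p = 0.0205). At day 14 none of the 21 was called in limma, and 2 were lower and 4 higher at an unadjusted p under 0.05. Of the targets of Trim30a, Tab2 differed by -0.05 at day 7 and by -0.54 (limma adjusted p = 0.0531) at day 14, where its IFNAR-/- arrays lay below all wildtype arrays, and Tab3 by 0.39 and -0.40; none of these was called.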

How the data were processed

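RNA of lung CD11c+ cells from 12 mice was measured on 12 Affymetrix mouse arrays, in 4 groups of 3. The authors processed the arrays with RMA, per the submitters' processing notes; the version is not given in the sources used here. The deposited value is a linear ratio, whose base no label gives; in 100% of 45101 probe sets the median of the 12 values was 1 to within 0.02. Log2 of the ratio was used with no further normalization; arrays have no depth, and their number limits precision. Of the probe sets 34945 carried 1 gene symbol (platform annotation, updated through GRCm38.p6 where identifiers matched, 34741) and were averaged to 18193 genes; 932 carried several, 9160 none, and 64 were controls. For Trim symbols 0 were renamed, and 5 probe sets of several genes were left out of the tests.

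The model had 1 mean per group (limma 3.58.1, R 4.3.3; 8 residual degrees of freedom, prior 3.21), with two-sided tests, Benjamini-Hochberg adjustment over all genes and a threshold of 0.05. The code was tested on simulated data. Comparisons share arrays: those of the same day or genotype are not independent. Genes named were those called in any comparison, the 3 highest and 3 lowest differences of each, and a list of cluster, sensing and chromatin members. The members and lists were chosen with earlier results of these data known. Alternatives were another normalization or centring, other ways to join probe sets, a filter on spread, other variance priors, array weights, covariates, blocks and arrays left out.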

Additional observations from a re-analysis of the deposited data

Results flagged for a closer look

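The genotype difference changed between days in 3 Trim genes by limma with all 12 arrays and no covariate. From day 7 to day 14, IFNAR-/- minus wildtype changed by 1.18 in Trim30a (log2; adjusted p = 0.0235), by -1.73 in Trim32 (adjusted p = 0.0304) and by -1.15 in Trim65 (adjusted p = 0.0436). With RNA quality (5′ over 3′ ratio) in the model none of the 58 genes was called in limma for this change (8 at an unadjusted p under 0.05), and without both arrays that lay apart Trim65 was not called (-1.15, adjusted p = 0.0729). The values by mouse and the arrays these calls rest on are given above.

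The 5 probe sets that name several genes, and so entered no test, all had every wildtype array above every IFNAR-/- array at day 7. Of all genes with a single symbol 11.6% did. All but that of H2aw and Trim17 name genes of the chromosome 7 cluster, so they are not separate from the differences described above. Wildtype minus IFNAR-/- was 1.80 on the probe set shared by Trim30d and Trim30a, 1.59 and 0.88 on those shared by Trim34b and Trim34a, 0.63 on that of Gm38525 and Trim30b, and 0.75 on that of H2aw and Trim17. At day 14 the wildtype arrays were all above the IFNAR-/- arrays on the first of these only, by 0.84, where 13.3% of all genes did so. Which gene of each set gave the signal cannot be read from the array, and the differences were not tested.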

How the results depend on the processing

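The counts of called Trim genes were 3 at day 7, 3 at day 14, 5 for the mean of both days, 3 for the change of the genotype difference, 7 over time in wildtype and 6 over time in IFNAR-/- cells. Array weights raised them to 11, 9, 9, 7, 13 and 14. Over all genes, array weights raised the first 3 of these counts from 481, 917 and 762 to 1882, 1899 and 2221. The 5′ over 3′ covariate gave 0 at day 14, 3 for the mean, 0 for the change and 1 over time in wildtype cells. At an unadjusted p under 0.05, limma then gave 6 at day 14 and 8 for the change. Of all genes this covariate left 37 called at day 14, against 917, and 493 for the mean, against 762. Quantile normalization gave 11 in wildtype and 3 in IFNAR-/- cells over time, and leaving out both arrays that lay apart gave 12 and 3. The probe set with the largest spread and the trended prior each gave 3 for the mean, and the filter on spread gave 5 for the change. Only the arrays compared gave 0 at day 14 (11 at an unadjusted p under 0.05 in limma), where 362 of all genes were called. They gave 2 over time in IFNAR-/- cells. Single probe sets gave 6 at day 14, where 1855 of all probe sets tested were called. The mouse numbers do not pair the samples, since each array is another mouse and their deviations correlated from -0.40 to 0.23; the replicate block gave 1 for the change, against 3, and moved no other count by over 1.5 times. Leaving out 1 array at a time gave 2 to 4 at day 7, 0 to 4 at day 14, 3 to 6 for the mean, 0 to 4 for the change, and 4 to 6 and 3 to 12 over time in wildtype and IFNAR-/- cells. The causes were not tested.

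Trim30d at day 7 kept its call in 11 of 11 settings and 6 of 6 omissions, and Trim30a in 10 and 6. Among 133 differences of named genes, 102 of 2452 recomputed values changed sign; none of these belonged to a called difference or was called, and the smallest adjusted p among them was 0.375. Of the differences printed here, at day 7 Trim14 became 0.0050 with medians subtracted, 0.013 with the largest-spread probe set, 0.051 with array weights, 0.030 with the poly-A covariate and 0.017 with the 5′ over 3′ covariate. Trim59 became 0.023 with the largest-spread probe set and 0.022 with array weights, and Trim26 -0.023 with poly-A and -0.013 without both arrays. At day 14 the largest-spread probe set gave -0.42 for Trim21, -0.011 for Trim24 and -0.0086 for Trim28, and array weights gave -0.083 for Trim21, 0.0045 for Trim33 and 0.020 for Trim6. The 5′ over 3′ covariate gave -0.078 for Trim12c, -0.17 for Trim21, 0.022 for Trim27 and 0.027 for Trim6, and leaving out both arrays gave 0.065 for Trim33. For the change, Trim12a became -0.12 with quantile normalization, and Trim25, at -0.23, became 0.25 with the largest-spread probe set and 0.085 without both arrays. Over time in IFNAR-/- cells Trim30d became -0.019 with quantile normalization, -0.025 with the largest-spread probe set, -0.14 with array weights and -0.0074 without both arrays. There Trim30a became 0.072 with that probe set and 0.026 without both arrays, and Trim12c 0.11 without both. With 1 array left out the day 7 ranges were -0.066 to 0.063 for Trim6, -0.044 to 0.044 for Trim14, -0.33 to 0.045 for Trim35, -0.26 to 0.13 for Trim59 and -0.013 to 0.14 for Trim26. At day 14 they were -0.13 to 0.30 for Trim28, -0.22 to 0.065 for Trim33 and -0.012 to 0.22 for Trim24. For the change Trim12a ran from -0.39 to 1.01, and over time in IFNAR-/- cells Trim30d from -0.090 to 0.19 and Trim30a from -0.27 to 0.038.

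Signal over background is unknown, because ratios carry no level, so dim probe sets could not be set aside. With 3 arrays per group, 16 of the 27 calls of Trim genes over the 6 comparisons were lost without at least 1 array. The p-values measure the spread between mice of 1 sort per mouse.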
